A study of Mus musculus with 9 samples.

Results

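Regulators of G protein signalling, the RGS proteins, were described in cultured mouse knee chondrocytes through 9 genes: Rgs2, Rgs3, Rgs4, Rgs5, Rgs10, Rgs12, Rgs16, Rgs17 and Rgs19. They were the rows of the deposited gene count table that carry these symbols, 9 of the 21 numbered Rgs genes and of the 56748 genes in the table, and each symbol matched 1 row. RNA sequencing compared 3 groups with 3 libraries each, all from wild-type (WT) cells isolated from knee cartilage. The first group received interleukin-1β (IL-1β), an inflammatory cytokine that drives cartilage breakdown, together with recombinant SFRP5, the secreted frizzled-related protein 5, which can bind Wnt ligands outside the cell. The second group received IL-1β alone, and the third was the control. The sources used here do not state the strain, age, dose or length of treatment, and SFRP5 was given only on top of IL-1β, so "with SFRP5" means both agents throughout. Whether the 3 libraries of a group stem from separate animals or cultures is not stated, so the p-values reflect library-to-library spread that could be technical.

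RGS proteins shut G protein signals down. A G protein coupled receptor loads the Gα subunit with GTP, and the RGS domain speeds the hydrolysis of that GTP, so that Gα returns to its inactive form and rejoins Gβγ. The R4 subfamily, with Rgs2, Rgs3, Rgs4, Rgs5 and Rgs16, holds mostly small proteins that act on the Gi and Gq classes of Gα. The R12 subfamily includes Rgs10 and the large multidomain Rgs12, and the RZ subfamily includes Rgs17 and Rgs19. In cartilage, G protein coupled receptors carry signals such as parathyroid hormone-related protein, prostaglandins and adenosine.

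The RGS genes did not move as 1 family. Rgs16, Rgs17 and Rgs12 were higher with IL-1β than in control cells and lower with IL-1β and SFRP5 than with IL-1β alone. Rgs2 and Rgs3 took the opposite course, and Rgs4 was lower than control in both treated groups. Rgs10 did not pass the test in any comparison, and Rgs19 passed it between IL-1β with SFRP5 and control. Rgs5 was too low to be tested. Both comparisons that involve IL-1β alone share its 3 libraries, so they are not independent of each other.

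The promoters of 4 members are shown because these genes had the largest changes: Rgs16 and Rgs17, which were higher with IL-1β, and Rgs2 and Rgs4, which were lower. All 9 members matched RefSeq promoter windows on GRCm38.p6, 13 windows in all, each of 250 bases before and 50 bases after an annotated start, read 5′ to 3′ on the gene's strand. Capitals mark a match, on either strand, to 1 of 5 motifs searched: the AP-1 motif TGANTCA, the cAMP response element TGACGTCA, the TATA box TATAAA, the CCAAT box CCAAT, and the NF-κB consensus.
Rgs16, chr1:153740103-153740402, plus strand: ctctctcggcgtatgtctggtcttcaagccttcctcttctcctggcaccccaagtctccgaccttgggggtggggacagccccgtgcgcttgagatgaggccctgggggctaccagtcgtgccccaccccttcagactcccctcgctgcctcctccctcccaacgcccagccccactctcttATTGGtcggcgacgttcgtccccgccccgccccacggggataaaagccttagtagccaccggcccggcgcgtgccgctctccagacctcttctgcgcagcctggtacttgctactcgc
Rgs17, chr10:5922351-5922650, minus strand: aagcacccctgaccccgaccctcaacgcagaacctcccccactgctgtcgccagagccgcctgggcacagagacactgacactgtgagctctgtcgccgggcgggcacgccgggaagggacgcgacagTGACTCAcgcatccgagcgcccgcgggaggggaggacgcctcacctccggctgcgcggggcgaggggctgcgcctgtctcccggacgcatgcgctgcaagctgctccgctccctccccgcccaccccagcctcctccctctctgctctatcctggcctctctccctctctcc
Rgs2, chr1:144004100-144004399, minus strand: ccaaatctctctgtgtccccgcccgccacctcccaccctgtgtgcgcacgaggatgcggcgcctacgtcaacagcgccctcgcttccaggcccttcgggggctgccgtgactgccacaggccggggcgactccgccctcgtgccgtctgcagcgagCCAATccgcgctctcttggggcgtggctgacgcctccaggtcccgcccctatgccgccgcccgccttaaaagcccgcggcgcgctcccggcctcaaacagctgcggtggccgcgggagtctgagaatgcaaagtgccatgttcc
Rgs4, chr1:169747593-169747892, minus strand: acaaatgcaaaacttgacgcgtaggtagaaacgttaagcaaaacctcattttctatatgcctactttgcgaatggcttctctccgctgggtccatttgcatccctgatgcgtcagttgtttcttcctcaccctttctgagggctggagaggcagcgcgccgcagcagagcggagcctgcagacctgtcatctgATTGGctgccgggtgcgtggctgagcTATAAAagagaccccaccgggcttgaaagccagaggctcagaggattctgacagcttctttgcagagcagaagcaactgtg
The Rgs16 window held a CCAAT box read on the reverse strand and none of the other 4 motifs. The Rgs17 window held 1 AP-1 match, TGACTCA, at position −122 from the start. The Rgs2 window held a CCAAT box at −94. The Rgs4 window held a reverse CCAAT box at −57 and a TATA box at −31. Among the other members, Rgs3 held the letters TATAAA in both of its windows, at −100 and −177. Rgs5 held a reverse CCAAT box at −67 and the second Rgs12 window an AP-1 match at −22. The windows of Rgs10 and Rgs19 held none of the 5 motifs. Of all 32851 windows in the RefSeq table, 7.81% held AP-1, 37.4% the CCAAT box, 13.6% the TATA box, 4.51% the NF-κB consensus and 1.79% the cAMP response element. Neither the NF-κB consensus nor the cAMP response element was in any of the 13 member windows. A match describes letters and is not a binding site. The GC content was 66.0% for Rgs16, 71.0% for Rgs17, 70.0% for Rgs2 and 53.0% for Rgs4, against a median of 52.7% over all windows.

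The libraries held 15795985 to 20688963 counts, and levels are CPM, counts relative to the TMM-scaled library size. Of 15502 genes tested with edgeR's quasi-likelihood test, 78.9% passed an adjusted p of 0.05 for IL-1β against control, 31.3% for IL-1β with SFRP5 against IL-1β, and 76.3% for IL-1β with SFRP5 against control. All adjusted p in the text are from this test, adjusted over these genes, unless another setting is named. Of the 9 members, 8 were tested. For IL-1β against control 6 of the 8 passed, 3 higher and 3 lower. That share of 75.0% is near the background of 78.9%, in which 38.5% of all tested genes were higher and 40.4% lower. For IL-1β with SFRP5 against IL-1β 5 of 8 passed, 2 higher and 3 lower, a share of 62.5% against a background of 31.3%. Of all tested genes 15.6% were higher and 15.7% lower there. For IL-1β with SFRP5 against control 7 of 8 passed, 4 higher and 3 lower, a share of 87.5% against a background of 76.3%. In that background 37.3% were higher and 39% lower. The median log2 fold change of the tested members was 0.04, 0.09 and 0.13 in the order given, against −0.03, 0.01 and −0.02 over all genes. The scaling bears on small changes: with upper-quartile factors or library totals in place of TMM, the median over all genes shifted by −0.15 and −0.24 for IL-1β against control and by −0.13 and −0.16 for IL-1β with SFRP5 against control.

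Counts of cell type markers are read against all tested genes, of which 38.5% were higher and 40.4% lower with IL-1β than in control. The 10 chondrocyte markers were all expressed. Their summed level was 27713 to 29081 CPM with IL-1β and SFRP5, 22040 to 23216 CPM with IL-1β and 107507 to 109857 CPM in control, and all 10 were lower with IL-1β than in control. Lymphocyte markers were nearly absent, with 6 of 8 at 0 in every library. Macrophage markers summed to 37.7 to 43.6 CPM, 55.6 to 59.8 CPM and 17.5 to 18.8 CPM in the same order of groups. Of the 6 tested of 12, 4 were higher with IL-1β and 1 was lower. That share of 83.3% called is near the 78.9% of all tested genes. The largest part of the macrophage sum with IL-1β was Cd14, at means of 18.6, 27.4 and 1.25 CPM in the same order. Laptm5 went the other way, at 1.20, 0.868 and 3.24 CPM. Adgre1, Tyrobp, Fcer1g, Ptprc, C1qa and C1qb were not tested and held 2 to 21 counts per group. Markers of synovial fibroblasts summed to 1189 to 1220 CPM, 928.7 to 984 CPM and 281 to 290.4 CPM, with 3 of 7 tested higher and 4 lower. Prg4 had means of 845, 475 and 65.4 CPM and Pdpn of 231, 384 and 34.3 CPM. Together they made most of the sum in both treated groups. The 4 lower genes were Thy1, Pdgfra, Cdh11 and Dpp4. Neutrophil markers summed to 4.83 to 7.22 CPM, 5.83 to 7.21 CPM and 0 to 0.152 CPM, with S100a9, Ly6g and Ngp at 0 in every library and 2 of 8 tested, both higher with IL-1β. Endothelial markers summed to 4.78 to 6.18 CPM, 5.18 to 6.36 CPM and 8.28 to 10.2 CPM, with Emcn at 0. Of the 3 of these 9 that were tested, Cdh5 and Tek were higher with IL-1β than in control and Erg was lower, with means of 1.72, 1.35 and 1.51 CPM with IL-1β against 0.0169, 0.294 and 7.91 CPM in control. The part of these markers in the RGS results was not tested. In these bulk samples fewer cells of a type and less RNA per cell cannot be told apart.

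**Figure D1:**
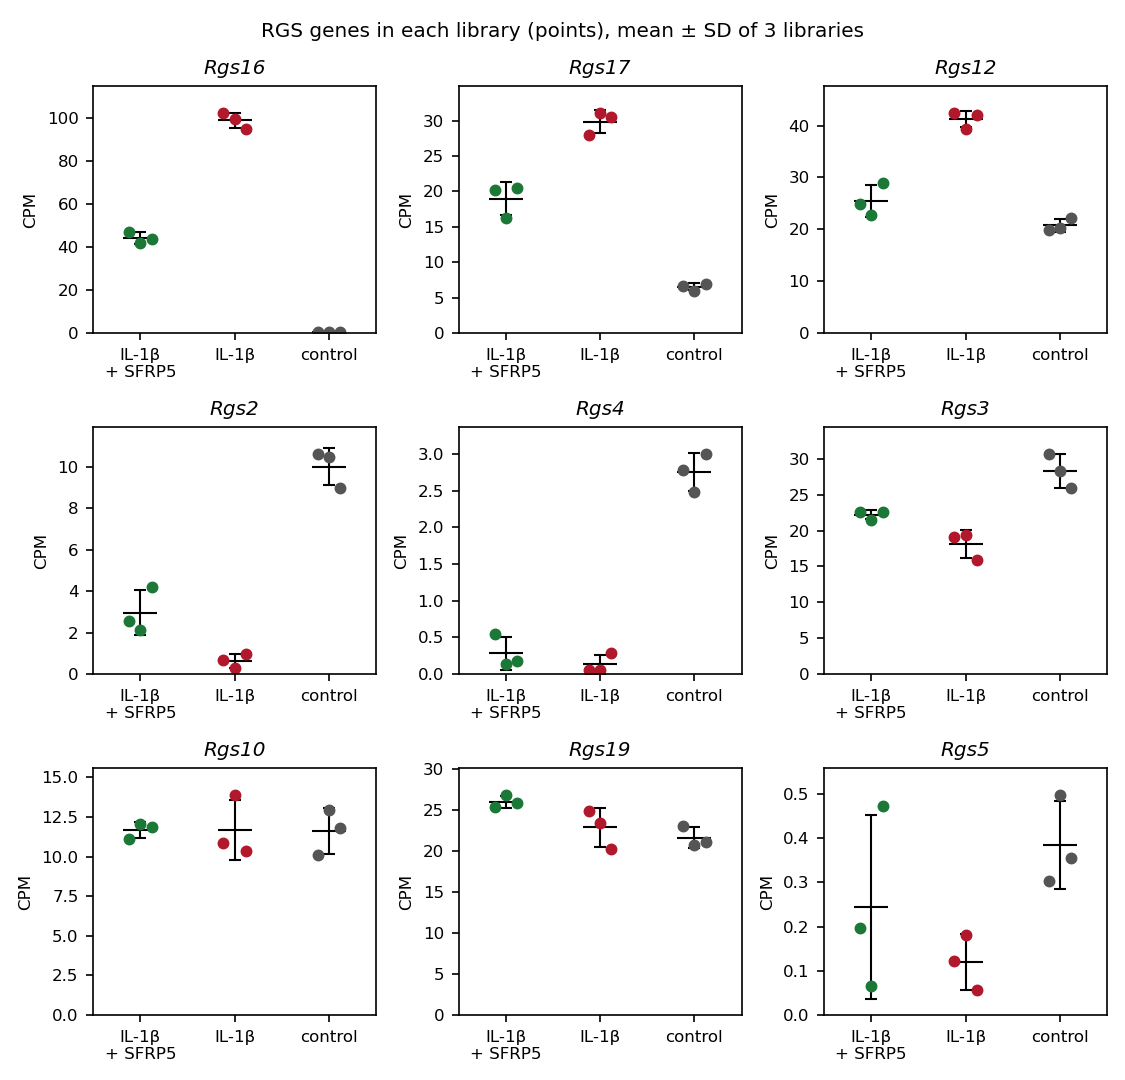
Level of each of the 9 RGS genes in CPM (vertical axis, from 0, a separate scale for each gene) in the 3 libraries of IL-1β + SFRP5, IL-1β and control; points are libraries, and bars are the mean ± SD. Rgs16 lies at 41.7 to 46.9 CPM with SFRP5, at 95.01 to 102 CPM with IL-1β and at 0.253 to 0.406 CPM in control.

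Rgs16 (ENSMUSG00000026475, chromosome 1) encodes a small R4 protein known to be induced by inflammatory signals in other cells. It had 46.9, 41.7 and 43.5 CPM in the libraries with IL-1β and SFRP5, 102, 99.6 and 95.01 CPM with IL-1β alone, and 0.253, 0.406 and 0.305 CPM in control. All 3 groups were separate, and control was close to the limit of detection, with 20 counts over its 3 libraries against 4993 with IL-1β. The depth-scaled ratio of IL-1β to control was 304, with an exact 95% interval of 197 to 499 that covers counting error only, because amplified reads do not each stand for a separate molecule. The log2 fold change was 8.22 (adjusted p = 2.09e-27), given without an SE, which for so low a control is smaller than the counting error. IL-1β with SFRP5 gave 44.0 ± 2.67 CPM against 98.9 ± 3.56 CPM with IL-1β (SD, n = 3 each), 2.24-fold lower, with a log2 fold change of −1.16 ± 0.05 (SE, adjusted p = 1.16e-14). Rgs16 with SFRP5 stayed 137-fold above control by the ratio of counts (exact interval 88.2 to 224, adjusted p = 7.50e-25). A long noncoding RNA on the opposite strand, Gm28513, overlaps Rgs16 and had 140 counts over all libraries against 7343 for Rgs16. Whether the counting used strand is not stated, so reads of the pair may have been mixed.

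Rgs2 (ENSMUSG00000026360, chromosome 1) encodes the R4 protein best known for acting on Gq. Its level was 2.56, 2.15 and 4.19 CPM with IL-1β and SFRP5, 0.668, 0.303 and 0.968 CPM with IL-1β, and 10.6, 10.5 and 8.99 CPM in control. No library of 1 group overlapped another group, and the group with SFRP5 lay between the others. With IL-1β Rgs2 was 15.2-fold lower than control, a log2 fold change of −3.93 ± 0.27 (SE, adjusted p = 7.51e-13). With IL-1β and SFRP5 it was 4.51-fold higher than with IL-1β, 2.17 ± 0.32 on the log2 scale (adjusted p = 7.63e-06), and 3.37-fold lower than control, −1.75 ± 0.20 (adjusted p = 2.12e-08). The summed counts behind these values were 156 with SFRP5, 33 with IL-1β and 619 in control.

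Rgs4 (ENSMUSG00000038530, chromosome 1) encodes an R4 protein best known from brain and heart. It had 0.542, 0.130 and 0.177 CPM with IL-1β and SFRP5, 0.0608, 0.0606 and 0.285 CPM with IL-1β, and 2.78, 2.48 and 3.00 CPM in control. Both treated groups lay below every control library and overlapped each other. In 1 library 3 counts equalled 0.135 to 0.195 CPM, so most of the treated values rest on few reads: the summed counts were 16, 7 and 169. IL-1β against control gave a log2 fold change of −4.25 (adjusted p = 2.26e-08), and by the counts Rgs4 was 19.8-fold lower (exact interval 9.40 to 49.99). Without IL-1β replicate 3, which held most of the IL-1β counts, the log2 fold change was −5.33. IL-1β with SFRP5 against control gave −3.16 ± 0.42 (SE, adjusted p = 2.65e-07), 8.96-fold lower, and −4.09 without replicate 1 of the group with SFRP5. A difference between IL-1β with SFRP5 and IL-1β was not detectable at this depth, at 1.08 ± 0.72 (SE, adjusted p = 0.276, 95% interval −0.32 to 2.49). With 1 library left out that estimate lay between 0.15, without replicate 1 of the group with SFRP5, and 2.19, without IL-1β replicate 3.

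Rgs3 (ENSMUSG00000059810, chromosome 4) encodes an R4 protein with several longer isoforms. Its level was 22.6, 21.5 and 22.5 CPM with IL-1β and SFRP5, 19.1, 19.4 and 15.9 CPM with IL-1β, and 30.6, 28.4 and 25.9 CPM in control. The groups did not overlap, although the changes were small. Rgs3 was 1.56-fold lower with IL-1β than in control, −0.64 ± 0.08 on the log2 scale (SE, adjusted p = 1.79e-07), and 1.27-fold lower with IL-1β and SFRP5 than in control, −0.35 ± 0.08 (adjusted p = 0.000501). The rise with SFRP5 over IL-1β was 0.30 ± 0.09 (adjusted p = 0.0115), and without IL-1β replicate 3, the lowest library, it was 0.21 and missed the threshold (adjusted p = 0.0889).

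Rgs5 (ENSMUSG00000026678, chromosome 1), an R4 gene used as a marker of pericytes, the cells that wrap small vessels, was not tested. It had 4, 1 and 8 counts with IL-1β and SFRP5, 2, 3 and 1 counts with IL-1β and 6, 11 and 7 counts in control. Control lay above IL-1β in every library, while the libraries with SFRP5 overlapped both. With no filter on low counts its log2 fold change for IL-1β against control was −1.62 ± 0.82 (SE, adjusted p = 0.0929 in edgeR's test). Of 11 markers of pericytes and smooth muscle, which included genes that other mesenchymal cells also express, Higd1b was at 0 in every library and Kcnj8 had 0, 0 and 3 counts with SFRP5, with IL-1β and in control. The summed level of the list was 642 to 665 CPM with SFRP5, 449 to 463 CPM with IL-1β and 947 to 955 CPM in control. Of 8 tested members 2 were higher and 4 lower with IL-1β than in control, against 38.5% and 40.4% of all tested genes. With SFRP5 against IL-1β 5 of these 8 were higher and none lower, against 15.6% and 15.7% of all tested genes. The list was not alone in this: of the 10 chondrocyte markers 5 were higher and none lower. Of the 6 tested macrophage markers none was higher and 3 were lower.

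Rgs12 (ENSMUSG00000029101, chromosome 5) encodes a large protein that carries a PDZ domain, Ras-binding domains and a GoLoco motif beside its RGS domain. It had 24.8, 22.8 and 28.9 CPM with IL-1β and SFRP5, 42.3, 39.4 and 42.0 CPM with IL-1β, and 19.9, 20.3 and 22.2 CPM in control. The 3 groups did not overlap. Rgs12 was 1.98-fold higher with IL-1β than in control, 0.99 ± 0.08 on the log2 scale (SE, adjusted p = 1.21e-11), and 1.62-fold lower with IL-1β and SFRP5 than with IL-1β, −0.69 ± 0.08 (adjusted p = 8.59e-08). Between IL-1β with SFRP5 and control the difference was 0.30 ± 0.08 (adjusted p = 0.00200), and it missed the threshold with upper-quartile factors (0.16, adjusted p = 0.0686) and with library totals (0.13, adjusted p = 0.153). An overlapping long noncoding RNA on the opposite strand, Gm43791, had 63 counts over all libraries against 4707 for Rgs12.

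Rgs10 (ENSMUSG00000030844, chromosome 7) encodes a small R12 protein studied mostly in immune cells and microglia. Its level was 11.1, 12.03 and 11.9 CPM with IL-1β and SFRP5, 10.9, 13.9 and 10.4 CPM with IL-1β, and 10.1, 13.0 and 11.8 CPM in control. All 3 groups overlapped. The log2 difference of IL-1β from control was 0.00 ± 0.12 (SE, adjusted p = 0.976), with a 95% interval of −0.23 to 0.24. For IL-1β with SFRP5 against IL-1β the interval was −0.24 to 0.23 (adjusted p = 0.980). Against control it was −0.23 to 0.23 (adjusted p = 0.990).

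Rgs17 (ENSMUSG00000019775, chromosome 10) encodes an RZ protein that acts on Gz, the Gi-class subunit encoded by Gnaz, among others. It had 20.2, 16.3 and 20.5 CPM with IL-1β and SFRP5, 28.0, 31.0 and 30.6 CPM with IL-1β, and 6.67, 5.96 and 6.96 CPM in control. The groups were separate, with SFRP5 between the others. Rgs17 was 4.58-fold higher with IL-1β than in control, 2.20 ± 0.10 on the log2 scale (SE, adjusted p = 1.94e-16). With IL-1β and SFRP5 it was 1.57-fold lower than with IL-1β, −0.65 ± 0.09 (adjusted p = 2.51e-06), and 2.92-fold higher than control, 1.55 ± 0.11 (adjusted p = 8.64e-13).

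Rgs19 (ENSMUSG00000002458, chromosome 2) encodes the RZ protein also known as GAIP, which binds Gα of the Gi class. Its level was 25.4, 26.8 and 25.8 CPM with IL-1β and SFRP5, 24.8, 23.5 and 20.3 CPM with IL-1β, and 23.1, 20.7 and 21.1 CPM in control. The libraries with SFRP5 lay above all others, and those of IL-1β and control overlapped. IL-1β with SFRP5 against control gave 0.27 ± 0.08 on the log2 scale (SE, adjusted p = 0.00399), which missed the threshold with upper-quartile factors (0.13, adjusted p = 0.134) and with library totals (0.10, adjusted p = 0.239). IL-1β with SFRP5 against IL-1β gave 0.18 ± 0.08 (adjusted p = 0.0860), and it passed without IL-1β replicate 1 (0.25, adjusted p = 0.0369) and with library totals (0.27, adjusted p = 0.0110). IL-1β against control gave 0.08 ± 0.08 (adjusted p = 0.362). It passed without IL-1β replicate 3 (0.19, adjusted p = 0.0444), and its sign turned with upper-quartile factors (−0.07) and library totals (−0.16).

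**Figure D2:**
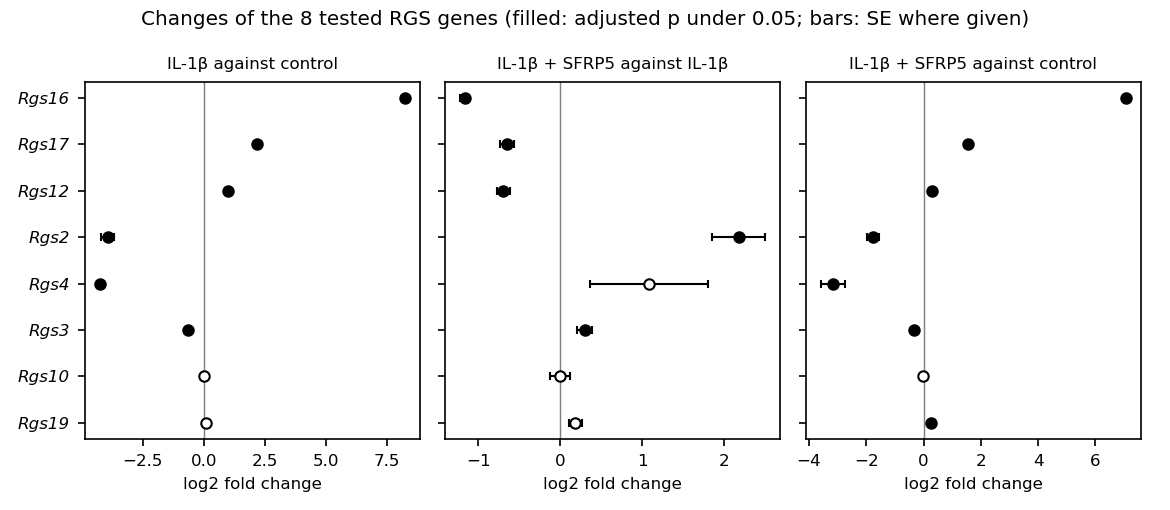
Log2 fold change (horizontal axis) of the 8 tested RGS genes in the 3 comparisons; filled points passed an adjusted p of 0.05 and bars are the SE, left out where it was below the counting error. Rgs16, Rgs17 and Rgs12 are right of 0 for IL-1β against control and left of 0 for IL-1β + SFRP5 against IL-1β, whereas Rgs2 and Rgs3 are on the opposite sides.

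Levels of different genes can be compared only per gene length, as CPM per kilobase of the length the table gives. On that scale Rgs16 led with IL-1β and SFRP5 at 18.8 ± 1.14 and with IL-1β at 42.3 ± 1.52, but was eighth of 9 in control at 0.137 ± 0.033 (SD, n = 3 each), where its range overlapped that of Rgs5. Rgs19 was next in both treated groups, at 11.7 ± 0.322 with SFRP5 and 10.3 ± 1.04 with IL-1β, and led in control at 9.70 ± 0.572. Rgs10 followed Rgs19 in every group, at 6.82 ± 0.292, 6.84 ± 1.11 and 6.80 ± 0.841 for SFRP5, IL-1β and control. Rgs12 and Rgs17 came next in both treated groups, at 3.00 ± 0.365 and 2.29 ± 0.285 with SFRP5 and at 4.86 ± 0.187 and 3.60 ± 0.195 with IL-1β. In control the places after Rgs10 were those of Rgs2 at 2.76 ± 0.248, Rgs3 at 2.62 ± 0.218 and Rgs12 at 2.45 ± 0.146, neighbours whose ranges overlapped. Rgs4 at 0.888 ± 0.083 and Rgs17 at 0.787 ± 0.062 also overlapped in control. Rgs17 and Rgs3 overlapped with SFRP5, where Rgs3 was at 2.06 ± 0.057. The lowest places with SFRP5 were those of Rgs2 at 0.818 ± 0.298, then Rgs4 and Rgs5, which overlapped. With IL-1β Rgs3 at 1.68 ± 0.183 stood above Rgs2, Rgs4 and Rgs5, each of which overlapped the next.

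The summed level of the 9 genes was 45.6 ± 1.27 CPM per kilobase with IL-1β and SFRP5, 69.8 ± 3.03 with IL-1β and 26.2 ± 0.354 in control. Rgs16 made up 40.1 to 43.3% of that sum with SFRP5, 59.5 to 61.3% with IL-1β and 0.412 to 0.654% in control. Without Rgs16 the sum of the other 8 genes was 26.3 to 27.8 with SFRP5, 25.6 to 29.0 with IL-1β and 25.7 to 26.4 in control, so the 3 ranges overlapped. This overlap is stated for levels per gene length only, and it holds changes in opposite directions. From control to IL-1β, Rgs17 went from 0.787 to 3.60 and Rgs12 from 2.45 to 4.86. Over the same step Rgs2 went from 2.76 to 0.178 and Rgs4 from 0.888 to 0.0437. Rgs2 held on average 1.79% of the whole sum with SFRP5, 0.259% with IL-1β and 10.5% in control. Rgs19 held on average 25.6%, 14.7% and 37.0% in the same order.

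**Figure D3:**
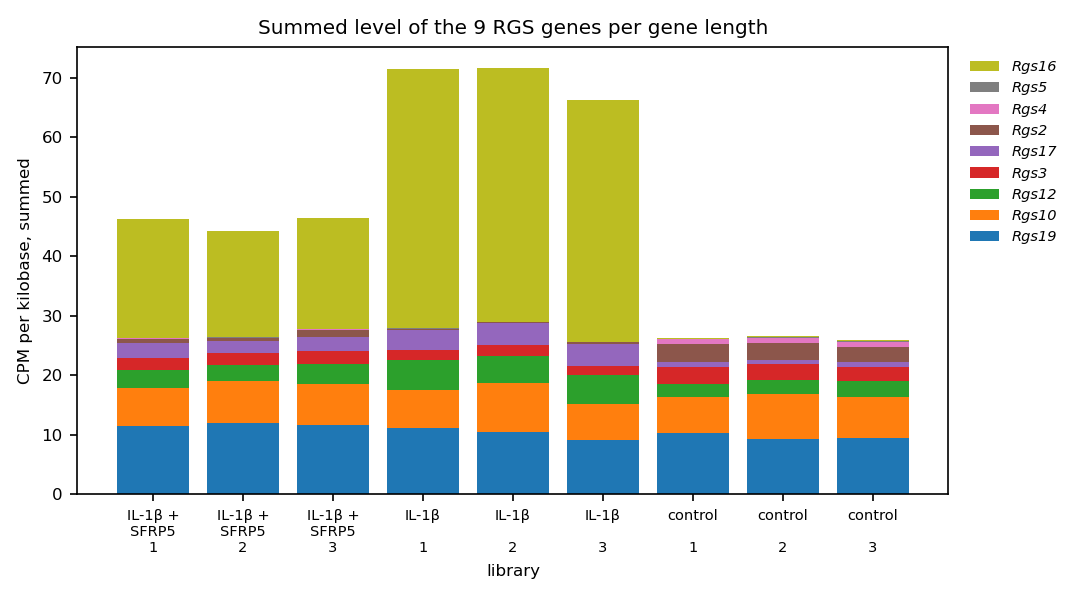
Summed level of the 9 RGS genes in CPM per kilobase (vertical axis, from 0) in each library, stacked by gene, for IL-1β + SFRP5, IL-1β and control. The sum is highest with IL-1β, at 69.8 ± 3.03, and most of the difference in the sum between groups lies in the Rgs16 segment. The other 8 genes sum to 25.6 to 29.0 in every library, although some of them change in opposite directions.

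Of the 12 other numbered Rgs genes, only Rgs9 and Rgs11 passed the filter on low counts. Both belong to the R7 subfamily, whose proteins form stable pairs with Gβ5 and are best known from neurons and photoreceptors. Rgs11 had 37.7, 36.6 and 29.4 CPM with IL-1β and SFRP5, 34.1, 33.1 and 32.8 CPM with IL-1β, and 1.97, 2.08 and 2.08 CPM in control. Both treated groups lay far above control and overlapped each other. Rgs11 was 16.3-fold higher with IL-1β than in control (log2 fold change 4.02, adjusted p = 1.45e-20), and IL-1β with SFRP5 differed from IL-1β by 0.05 ± 0.08 (SE, adjusted p = 0.671). Arhgdig, on the opposite strand, overlaps Rgs11 and had 211 counts over all libraries against 3637. Rgs9 had 149 counts with IL-1β and SFRP5, 222 with IL-1β and 3 in control, a ratio of 90.2 for IL-1β to control (exact interval 30.5 to 441, adjusted p = 2.59e-12). The fitted log2 fold change was 6.30, and 7.15 without control replicate 1. For SFRP5 against IL-1β Rgs9 gave −0.63 ± 0.24 (SE, adjusted p = 0.0448). This call was lost without IL-1β replicate 3 (−0.39, adjusted p = 0.313), without any 1 of the 3 libraries with SFRP5 (adjusted p 0.0807 to 0.118), and with upper-quartile factors (0.05001), library totals (0.0800) and DESeq2 (0.0998).

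Among the other 10, Rgs13 and Rgs21 had no count in any library and the rest had few. Rgs8 had 13 counts with IL-1β and SFRP5, 37 with IL-1β and 2 in control, a ratio of 22.6 for IL-1β to control (exact interval 5.82 to 193). Rgs8 is the neighbour of Rgs16 on chromosome 1, on the same strand and with 0 protein-coding genes between them. Rgs1, best known from lymphocytes, had 6, 15 and 0 counts in the same order, at least 6.10-fold higher with IL-1β when 3 counts stand for the 0 over the control group. Rgs6 had 9 counts and Rgs18, a gene of platelets and their precursors, had 5 counts in control, and both had 0 in the treated groups. Rgs4 and Rgs5 are also neighbours on chromosome 1, with 0 protein-coding genes between them. So are Rgs2, Rgs13, Rgs1, Rgs21 and Rgs18, in that order, each with 0 protein-coding genes before the next. Within that run Rgs2 had 33 counts with IL-1β and 619 in control, while Rgs1 had 15 and 0.

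For each tested member, the genes with the most similar profile were sought among 9045 genes with a mean of 10 CPM or more, by the Euclidean distance of centred log2 CPM over the 9 libraries. Nearest to Rgs16 were the long noncoding RNA Ptgs2os2 at a distance of 0.75, with no count in control, and Tnfaip3, which encodes a brake on NF-κB signalling, at 0.79. Both distances exceed those given below for Rgs17, Rgs12, Rgs3, Rgs19 and Rgs10. With SFRP5 against IL-1β the log2 fold changes of Ptgs2os2 and Tnfaip3 were −1.67 and −1.49, against −1.16 for Rgs16. For values near 0 in control the distance also depends on the prior count. Nearest to Rgs17 were Rap1b at 0.33 and Rel, an NF-κB subunit, at 0.35. Rgs12 had Itpripl2 at 0.25 and Dcbld2 at 0.29. Rgs4 lay nearest to the cell division genes Hmmr at 1.17 and Prc1 at 1.19, and Rgs2 to Megf6 at 1.26 and Pi15 at 1.27, which are wide distances. The nearest genes to Rgs3 were Phf23 and Mrpl23, to Rgs19 Plbd2 and Dmac2, and to Rgs10 N6amt1 and Zfp768, at 0.17 to 0.28. These distances are descriptions over libraries that fall into 3 groups.

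**Figure D4:**
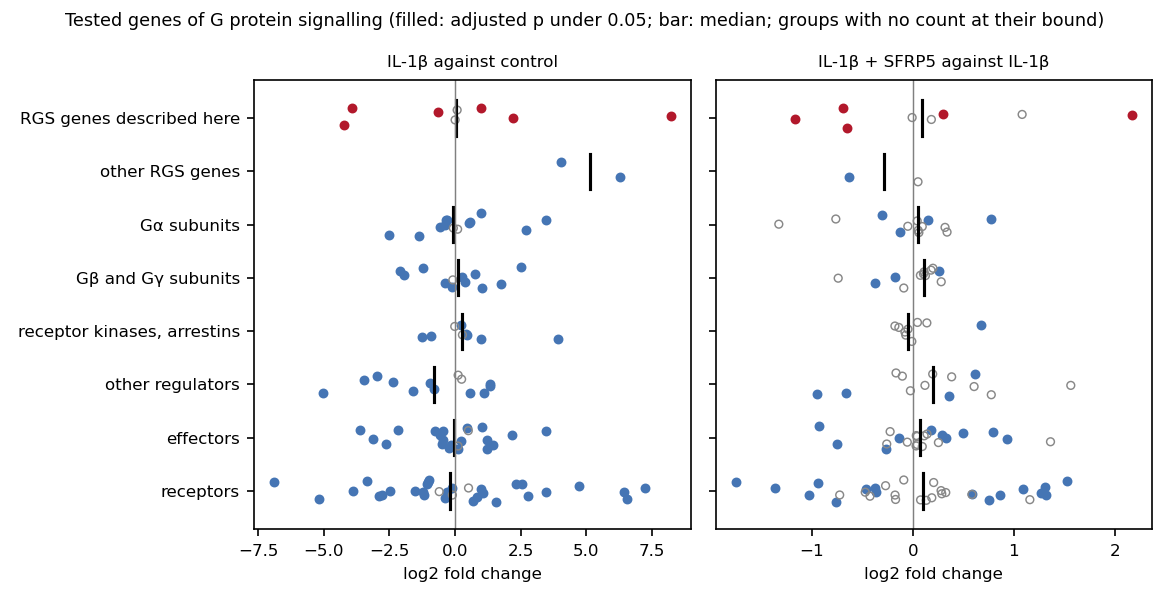
Log2 fold change (horizontal axis) of each tested gene in the lists of G protein signalling, for IL-1β against control and IL-1β + SFRP5 against IL-1β; filled points passed an adjusted p of 0.05, the vertical bar is the list's median, and Agtr2 is drawn at the bound that 3 counts give. The medians of the lists of subunits, effectors and receptors lie within 0.2 of 0 in both panels, with genes on both sides.

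The lists of other G protein signalling genes are read against the background of all tested genes, of which 38.5% were higher and 40.4% lower for IL-1β against control, and 15.6% higher and 15.7% lower for IL-1β with SFRP5 against IL-1β; genes in both directions are thus no feature of the lists. Of 16 Gα subunits, among which those of the Gi and Gq classes are the usual targets of RGS proteins, 13 were tested, and with IL-1β against control 5 were higher and 6 lower (median −0.06). Gna13, which encodes the subunit Gα13, had 541 ± 9.07 CPM with IL-1β and SFRP5, 669.8 ± 16.9 CPM with IL-1β and 60.8 ± 1.84 CPM in control (SD, n = 3 each). Its change with IL-1β was 3.46 ± 0.04 on the log2 scale (SE, adjusted p = 7.86e-29), and with SFRP5 against IL-1β it was −0.31 (adjusted p = 2.59e-07). Gnaz, the Gz subunit on which Rgs17 acts, had 8.14, 6.90 and 8.97 CPM with SFRP5, 5.41, 4.00 and 4.67 CPM with IL-1β and 0.354, 0.677 and 1.117 CPM in control. It was higher with IL-1β than in control by 2.70 ± 0.27 (adjusted p = 1.16e-09) and, unlike Rgs17, higher with SFRP5 than with IL-1β by 0.77 (adjusted p = 0.00254). Gnat2, the transducin of cones, gave −2.53 ± 0.37 with IL-1β against control (−3.35 without IL-1β replicate 2, adjusted p = 9.08e-07 with all libraries) at levels of 0.211, 0.539 and 3.12 CPM in the 3 groups. With SFRP5 against IL-1β 2 of the 13 were higher and 2 lower (median 0.05).

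Of 17 Gβ and Gγ subunits 12 were tested, with 6 higher and 5 lower for IL-1β against control (median 0.10) and 1 higher and 2 lower for SFRP5 against IL-1β. The largest changes with IL-1β were those of Gng4 (2.504 ± 0.52), Gng13 (−2.10 ± 0.43) and Gng7 (−1.93 ± 0.14), which all passed the test, and Gng4 gave 3.36 without control replicate 3. Gng7 had 5.29 CPM with SFRP5, 4.32 CPM with IL-1β and 16.5 CPM in control. Of 10 receptor kinases and arrestins, a list that includes genes that end signalling at the receptor itself, 9 were tested. With IL-1β 5 were higher and 2 lower (median 0.28). Arrb1, which encodes β-arrestin 1, had 73.2 ± 3.21 CPM with SFRP5, 73.6 ± 1.498 CPM with IL-1β and 4.80 ± 0.636 CPM in control, a log2 fold change of 3.93 with IL-1β (adjusted p = 1.66e-24). Grk4 was lower (−1.28 ± 0.25) and Arrdc4 higher (1.00 ± 0.13). Of these 9 genes 1 was higher and none lower with SFRP5 against IL-1β.

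Of 16 other regulators of G protein and receptor function 13 were tested, with 4 higher and 7 lower for IL-1β against control (median −0.80), and 2 higher and 2 lower for SFRP5 against IL-1β. Ramp2 and Ramp1, which encode partners of the calcitonin receptor-like receptor, were among those lower: Ramp2 had 10 counts with SFRP5, 3 with IL-1β and 131 in control, and Ramp1 had 34, 19 and 260. All 3 IL-1β counts of Ramp2 were in replicate 3. Rap1gap, which shuts off the small GTPase Rap1, was at 3.02, 2.32 and 18.5 CPM in the same order, −2.98 ± 0.15 with IL-1β (SE, adjusted p = 9.62e-16). Of 25 effectors 22 were tested, with 9 higher and 11 lower for IL-1β against control (median −0.02), and 6 higher and 4 lower for SFRP5 against IL-1β. Pde4b, a phosphodiesterase that degrades cAMP, had 40.8 ± 3.62 CPM with SFRP5, 68.7 ± 6.64 CPM with IL-1β and 6.26 ± 0.497 CPM in control. It was 3.45 ± 0.09 higher with IL-1β on the log2 scale (adjusted p = 1.14e-21). The adenylyl cyclases Adcy9 and Adcy5, which make cAMP, were lower: Adcy9 had 4.66 CPM with SFRP5, 3.91 CPM with IL-1β and 34.7 CPM in control (adjusted p = 1.93e-19 for IL-1β against control), and Adcy5 had 14, 5 and 80 counts (adjusted p = 3.05e-06).

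Of 41 receptors 32 were tested, with 13 higher and 16 lower for IL-1β against control (median −0.19), and 8 higher and 8 lower for SFRP5 against IL-1β. Ptger3, a prostaglandin E2 receptor, had 199, 265 and 3 counts with SFRP5, with IL-1β and in control, a ratio of 108 for IL-1β to control (exact interval 36.5 to 526) and a fitted log2 fold change of 6.56, or 7.41 without control replicate 3. Agtr2, an angiotensin receptor, had 9 counts with SFRP5, 0 with IL-1β and 434 in control, at least 119-fold lower with IL-1β than in control when 3 counts stand for the 0 over the group. P2ry1, a receptor for ADP, had 8, 27 and 66 counts, and SFRP5 against IL-1β gave −1.75 ± 0.60 (SE, adjusted p = 0.0286). That call was lost without replicate 2 or 3 of IL-1β, without replicate 1 or 3 of the group with SFRP5 (adjusted p 0.0643 to 0.161), and with DESeq2 (0.0616), and the change was −2.63 without replicate 2 of that group. The rise of Agtr2 with SFRP5 over IL-1β (adjusted p = 0.0279) was lost without any 1 of the 3 IL-1β libraries and without replicate 1 or 2 of the group with SFRP5 (adjusted p 0.0544 to 0.141).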

How the data were processed

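Per the labels' protocols, the authors isolated chondrocytes from mouse knee cartilage with collagenase, made directional RNA libraries, trimmed reads with fastp, aligned them with STAR to mm10 and quantified them with RSEM. Their versions, the annotation release, the strand setting and how estimates became whole numbers are not stated. The deposited values are raw counts per gene, not scaled between libraries, and the table's gene length in bases is deposited beside them. Positions in the table did not match the labelled build, so chromosomes only are given from it.

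Counts were tested with edgeR 4.0.16 (R 4.3.3): filterByExpr by group, TMM factors, 1 mean per group, 1 quasi-likelihood fit over all 9 libraries and Benjamini-Hochberg adjustment over the 15502 genes tested in each comparison. An SE is the log2 fold change divided by the root of the F statistic. Intervals of a log2 fold change are normal 95% intervals from that SE. Intervals of a ratio of summed counts are exact binomial. Log2 CPM for profiles used a prior count of 2. The fit was tested on simulated counts with 200 changed genes. All of these were raised, in the IL-1β group only, so the simulation does not cover data in which most genes change. Other factors, DESeq2 1.42.0, robust dispersions, no filter, a replicate block, fewer libraries and each library left out were tried.

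Members and lists were chosen with earlier results of these data known. All 9 members are described. From each other list, the 3 called genes with the largest absolute log2 fold change for IL-1β against control are named, with any called for SFRP5 against IL-1β at 1 or more. One gene that this rule names is not reported here. Promoters are from RefSeq (GRCm38.p6), with motif counts from pandas 2.3.3 and Python 3.11.15.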

Additional observations from a re-analysis of the deposited data

How the results depend on the processing

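Across 17 alternatives per comparison, 6 to 7 members passed for IL-1β against control, 4 to 6 for IL-1β with SFRP5 against IL-1β and 5 to 7 for IL-1β with SFRP5 against control. Most alternatives tested the same 8 members. Rgs5 was also in the fit with no filter on low counts and with DESeq2. With no filter it passed in no comparison (adjusted p 0.0929 to 0.559 in edgeR's test). For SFRP5 against IL-1β with the 6 libraries alone, Rgs4 missed the filter and 7 members were tested. The changes of Rgs16, Rgs17 and Rgs2 kept their direction and call in all 17 for all 3 comparisons. So did those of Rgs4 and Rgs3 against control in both treated groups, and that of Rgs12 for IL-1β against control and for SFRP5 against IL-1β. The sign of Rgs10, whose change was near 0, turned. For IL-1β against control it was −0.14 with upper-quartile factors, −0.24 with library totals, and −0.11 to 0.11 with 1 library left out. For IL-1β with SFRP5 against IL-1β it was 0.0075 with upper-quartile factors, 0.0050 with the replicate block, 0.076 with library totals, and −0.087 to 0.13 with 1 library left out. For IL-1β with SFRP5 against control it was 0.011 with RLE factors, 0.014 with DESeq2, 0.011 with the replicate block, 0.014 with the 6 libraries alone, 0.019 with no filter, and −0.094 to 0.085 with 1 library left out. Rgs19 for IL-1β against control was −0.066 with upper-quartile factors and −0.16 with library totals. Rgs11 for SFRP5 against IL-1β was −0.019 to 0.15 with 1 library left out. The cause was not tested.

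With the replicate number as a block, 6, 5 and 7 members and 12151, 4780 and 11761 genes passed in the 3 comparisons, against 12227, 4858 and 11828 genes without it. Among the changes named, only that of Rgs9 with SFRP5 against IL-1β lost its call (adjusted p = 0.0654). Libraries with the same number did not deviate together (r −0.04 to 0.04 across genes), so the numbers are not taken as pairs. Depth limits Rgs4, Rgs5, Rgs8 and Rgs1, whose treated groups held 37 counts or fewer. It also limits the size of the Rgs2 changes, because the IL-1β group held 33 counts of Rgs2. With 1 library left out, the log2 fold change of Rgs2 was −4.33 to −3.57 for IL-1β against control. For IL-1β with SFRP5 against IL-1β that range was 1.84 to 2.60.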
